A study of Rattus norvegicus with 31 samples.

Results

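The genes described here carry out glucuronidation and sulfation, 2 conjugation reactions by which the liver clears hormones and foreign compounds. They were chosen by name: Ugt2b17, Sult1a1, Sult1b1 and Sult1e1 for the enzymes that transfer the conjugate, and Ugp2, Ugdh and Papss2 for the enzymes that make the activated donor. Of these 7 names, 6 had a row in the table of raw read counts, which held 26312 genes, and the same 6 had a row in the table of normalized counts. Sult1e1 had no row under that symbol. RNA sequencing was done on 31 livers of young adult female Wistar (Crl:WI) rats, 1 library per rat, after 28 days of daily oral gavage in 0.5% aqueous carboxymethyl-cellulose. Control rats (n = 8) received this vehicle alone. Thiacloprid (THI) was given at 108 mg/kg bw/day (n = 4), imazalil (IMZ) at 93 mg/kg bw/day (n = 4) and clothianidin (CTD) at 288 mg/kg bw/day (n = 3). The paper marks this CTD group as having lost at least 1 rat, killed when moribund. The binary mixtures held 54 mg THI with 46 mg IMZ (THI + IMZ), 54 mg THI with 134 mg CTD (THI + CTD) and 46 mg IMZ with 135 mg CTD (IMZ + CTD), with 4 rats each. THI and CTD are neonicotinoid insecticides and IMZ is an azole fungicide. All animals were females of 1 strain, at 1 dose level of each compound or mixture and 1 time point.

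In glucuronidation, a UDP-glucuronosyltransferase in the endoplasmic reticulum couples glucuronic acid from UDP-glucuronate to a steroid, bile acid, bilirubin or foreign compound. In sulfation, a cytosolic sulfotransferase moves a sulfonate group from the donor PAPS to a phenol, alcohol or steroid. Both reactions make the substrate more water soluble, and in liver several of the transferase genes are known targets of the xenobiotic receptors CAR and PXR.

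The members lie close to each other in part. In the order of protein-coding genes of the RefSeq assembly GRCr8, Sult1e1, Sult1d1 and Sult1b1 open a stretch of 16 genes on chromosome 14 that goes on with 10 UGT genes of the 2a and 2b families, and Ugdh and Ugp2 are on the same chromosome. Sult1a1 and Papss2 are on chromosome 1. RefSeq gives Ugt2b17 as an older name of both Ugt2b15 and Ugt2b1 in that stretch, so the deposited row Ugt2b17 (ENSRNOG00000001990) could not be tied to 1 of them. The sequence of the 250 bases before the start is shown for the 3 other genes that passed the test in some treatment, Sult1b1, Ugdh and Papss2, since these windows differ in kind. All 3 are on the plus strand and are taken from the RefSeq table of promoters on GRCr8. Capitals mark matches, on either strand, to AGTTCA and AGGTCA (nuclear receptor half-sites), TGACNNNGC (the core of the antioxidant response element), GCGTG (the core bound by the aryl hydrocarbon receptor) and TATAAA.
Sult1b1, chr14:20771667-20771916: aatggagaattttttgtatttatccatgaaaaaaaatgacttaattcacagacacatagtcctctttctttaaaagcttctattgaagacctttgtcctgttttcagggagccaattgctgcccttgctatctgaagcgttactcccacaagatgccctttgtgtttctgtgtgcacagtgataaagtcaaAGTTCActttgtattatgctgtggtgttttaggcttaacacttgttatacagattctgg
Ugdh, chr14:43202268-43202517: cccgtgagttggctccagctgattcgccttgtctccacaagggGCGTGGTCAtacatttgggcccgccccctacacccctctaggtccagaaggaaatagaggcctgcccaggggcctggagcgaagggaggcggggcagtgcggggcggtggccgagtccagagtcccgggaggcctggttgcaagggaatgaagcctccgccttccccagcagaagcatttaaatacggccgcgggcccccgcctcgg
Papss2, chr1:239867463-239867712: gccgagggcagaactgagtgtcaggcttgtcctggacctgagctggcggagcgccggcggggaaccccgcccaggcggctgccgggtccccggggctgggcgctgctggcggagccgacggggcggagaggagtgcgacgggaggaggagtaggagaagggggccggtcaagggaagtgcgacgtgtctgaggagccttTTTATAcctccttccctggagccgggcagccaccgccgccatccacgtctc

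The Sult1b1 window was poor in G and C (37.2%, with 1 CpG), whereas the windows of Ugdh (66%, 16 CpG) and Papss2 (70.8%, 23 CpG) were rich in both. The median over 33465 promoters of the same length was 51.2% with 5 CpG. AGTTCA lay 59 to 54 bases before the start of Sult1b1 and was found in 12.2% of all promoters. In Ugdh the matches to TGACNNNGC (on the minus strand) and GCGTG overlapped, both from 207 bases before the start. These letters occurred in 10.1% and 25.9% of all promoters. The match in Papss2 was TATAAA on the minus strand (12.9% of promoters). Of the 6 members with a promoter in the table, Sult1e1 held AGGTCA (14.1% of promoters), Ugp2 held GCGTG and Sult1a1 held no match. A match of letters does not show binding.

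Raw totals ranged from 31820322 to 101230067 counts per library, with a median of 60475417 in controls against 40216559 in treated livers. Each found member had at least 4739 counts in every library, so counting error was small beside the spread between rats. The labelled tissue matched its markers: 8 of 8 hepatocyte genes were measured and summed to between 168600 and 259100 counts per 1000000 (CPM) over the groups, while 6 lymphocyte genes summed to between 7.05 and 17.4 CPM. In bulk liver, fewer cells of a type and less RNA per cell cannot be told apart. Levels are given as CPM after TMM normalization, a scale that does not correct for gene length, so levels are compared between rats and not between genes. Differences are log2 fold changes from the quasi-likelihood test of edgeR, fitted to all 7 groups, with p-values adjusted over 19904 genes and a threshold of 0.05.

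Ugt2b17 rose with 5 of the 6 treatments, to between 2.42 and 2.80 times the control mean. Sult1b1 rose with CTD, Ugdh rose with CTD and THI + IMZ, and Papss2 fell with THI + CTD. Sult1a1 and Ugp2 passed the test with no treatment. The number of the 6 members called was 1 with THI (0.543% of all genes tested were called), 1 with IMZ (0.251%), 3 with CTD (12.7%), 2 with THI + IMZ (1.18%), 2 with THI + CTD (4.39%) and 0 with IMZ + CTD (1.46%). With IMZ + CTD, 2 members and 2557 of all genes had an unadjusted p under 0.05, and DESeq2 called 0 members as well. The plot of levels by group shows all 31 livers.

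**Figure D1:**
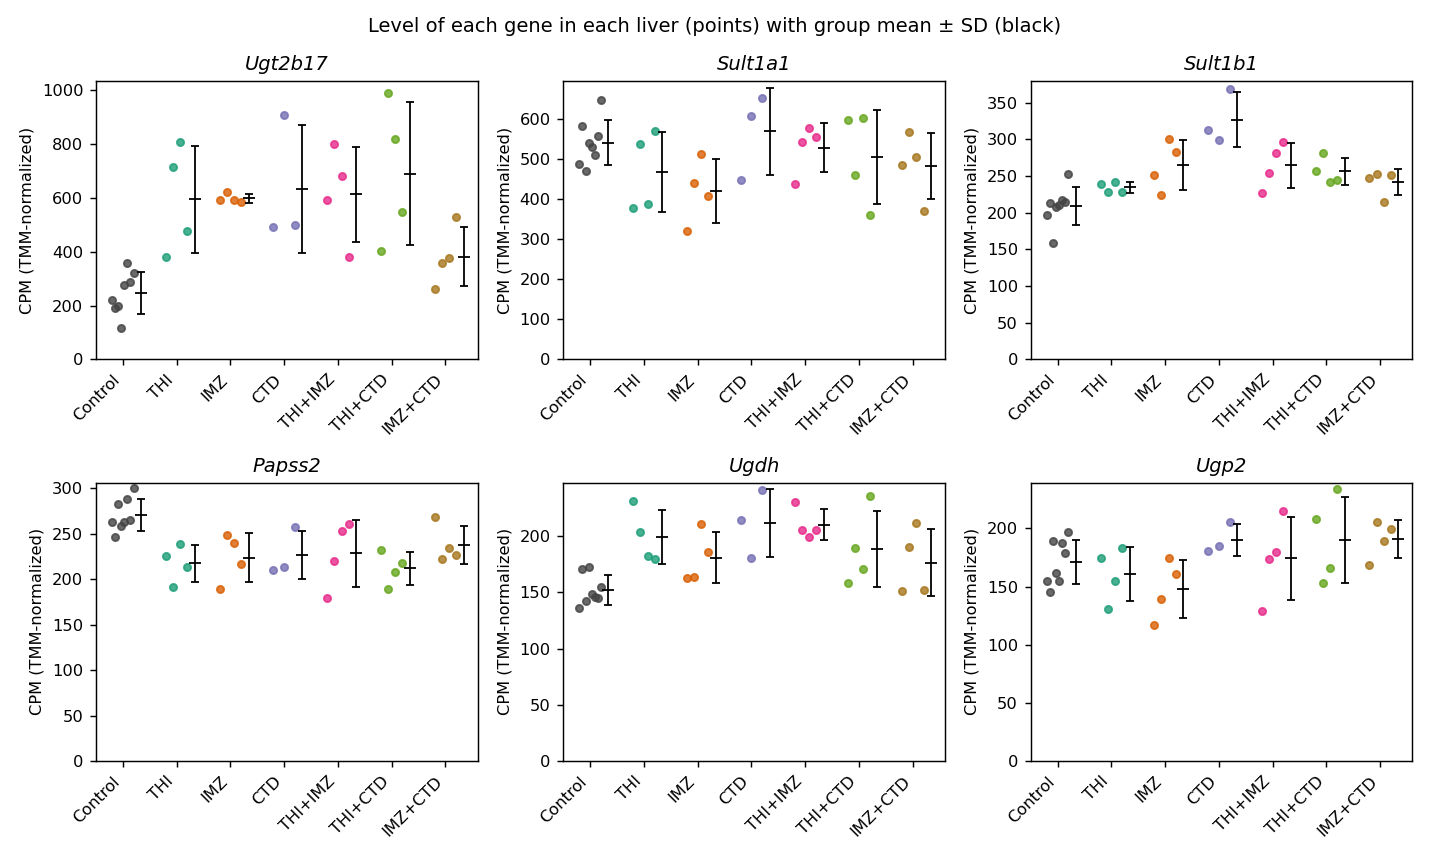
Levels of the 6 measured genes in CPM (TMM-normalized, axes from 0) in each of 31 livers by group, with points for single rats and black bars for the mean ± SD. The control livers of Ugt2b17 sit between 115 and 358 CPM, below every liver given THI, IMZ, CTD, THI + IMZ or THI + CTD.

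Ugt2b17 encodes a UDP-glucuronosyltransferase of the 2b family, which conjugates steroids and foreign compounds. Control livers held 115 CPM at the lowest, 249 at the median and 358 at the highest. The THI livers held 382, 716, 808 and 477 CPM. All 4 lay above all 8 controls, with the highest at over double the lowest. The IMZ livers held 592, 622, 594 and 586 CPM, the tightest of the 7 groups (599 ± 16.2, SD, n = 4). The CTD livers held 493, 907 and 499.8 CPM, so that 1 of the 3 rats stood well above the others. With THI + IMZ the 4 rats were at 594, 800.2, 681 and 382 CPM, and with THI + CTD at 402, 991, 821 and 546 CPM. Again no treated liver overlapped the controls. Over all genes, the share whose treated livers all lay above all controls was 0.734% (THI), 0.713% (IMZ), 5.33% (CTD), 0.794% (THI + IMZ) and 2.14% (THI + CTD). With IMZ + CTD the livers held 262, 359, 377 and 529.9 CPM. The first of these fell within the control range and the other 3 were above it, the second by little.

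The log2 fold changes of Ugt2b17 were 1.27 (SE 0.25, adjusted p = 0.00586 by edgeR) with THI, 1.28 (SE 0.25, adjusted p = 0.00839) with IMZ and 1.36 (SE 0.27, adjusted p = 0.000572) with CTD. They were 1.32 (SE 0.24, adjusted p = 0.00323) with THI + IMZ and 1.49 (SE 0.24, adjusted p = 0.000349) with THI + CTD. With IMZ + CTD the estimate was 0.63 (95% confidence interval 0.13 to 1.14), with an adjusted p of 0.248 by edgeR. The call with THI rested on 1 rat: without THI replicate 3 the estimate was 1.09 and the adjusted p 0.0616 by edgeR. The plot of fold changes sets the 6 comparisons beside each other.

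**Figure D2:**
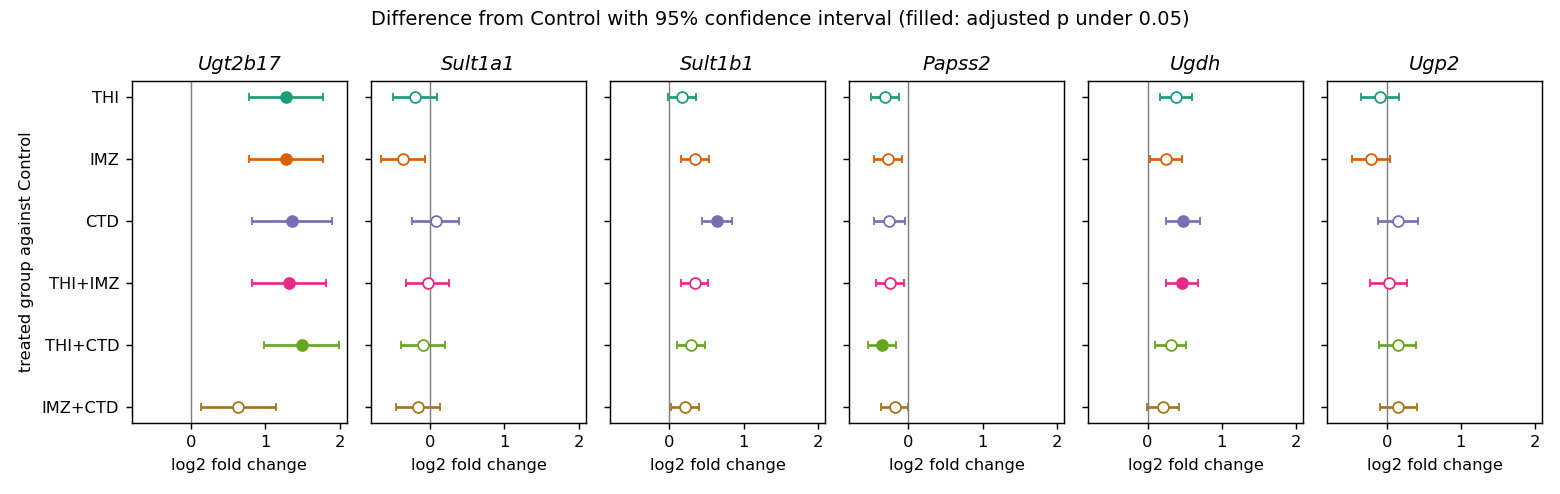
Log2 fold change of each gene against Control (x axis) for the 6 treated groups (y axis) with 95% confidence intervals, filled where the adjusted p was under 0.05. Ugt2b17 lies at 1.27 to 1.49 for the 5 filled treatments and at 0.63 for IMZ + CTD, while the estimates of Papss2 are negative in all 6, between -0.35 and -0.19.

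A neighbouring transferase row, Ugt2b (ENSRNOG00000046540), was singled out after its values had been seen, because it split the livers into 3 separate ranges. It had 0.231 to 0.843 CPM (15 to 35 counts) in 4 livers, 985 to 1284 CPM in 15 and 1886 to 2547 CPM in 12, and each range held livers of control and treated rats. Its group means did not pass the test in any comparison with control (log2 fold changes between -0.46 and 0.46, SE 1.14 to 1.28). Among the 8 controls, the level of Ugt2b17 followed these ranges without overlap. The highest range held Control replicates 5 to 8, and replicates 1 to 4 lay in the lower ranges. Among controls, the highest range and the replicate number can therefore not be told apart. The control with 0.231 CPM of Ugt2b had 115 CPM of Ugt2b17, the 3 controls between 990 and 1050 CPM of Ugt2b had 192 to 221 CPM, and the 4 controls between 2002 and 2233 CPM had 276 to 358 CPM. Among treated livers the order was looser: THI replicate 1 and THI + CTD replicate 1, both with under 1 CPM of Ugt2b, held the lowest Ugt2b17 level of their groups, but THI + IMZ replicate 1, also under 1 CPM, held 594 CPM. The genes of this family are alike in sequence, so the counts of each row are uncertain as far as reads could be assigned to another copy. The part of such reads in these values was not tested.

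With the Ugt2b level as a covariate in the same fit, an alternative chosen after seeing these ranges, Ugt2b17 changed by 0.42 (SE 0.09) on the log2 scale per 1000 CPM of Ugt2b. The estimate for IMZ + CTD became 0.73 (adjusted p = 0.0418 by edgeR), and those for the other 5 treatments lay between 1.14 and 1.61 with adjusted p-values up to 0.00166. The neighbouring row Ugt2b37 went the other way, by -0.25 (SE 0.05) per 1000 CPM of Ugt2b. Sult1b1 changed by 0.11 (SE 0.04) per 1000 CPM of Ugt2b, and its estimates with THI + IMZ (0.38, adjusted p = 0.0152 by edgeR) and THI + CTD (0.33, adjusted p = 0.0185) then passed the threshold. Over all genes this fit called 302 with IMZ + CTD, 226 with THI + IMZ and 791 with THI + CTD. Without the covariate these were 290, 235 and 873. The covariate was picked from these same livers, so these passes are no independent support for a difference. The plot of both rows shows each liver.

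**Figure D3:**
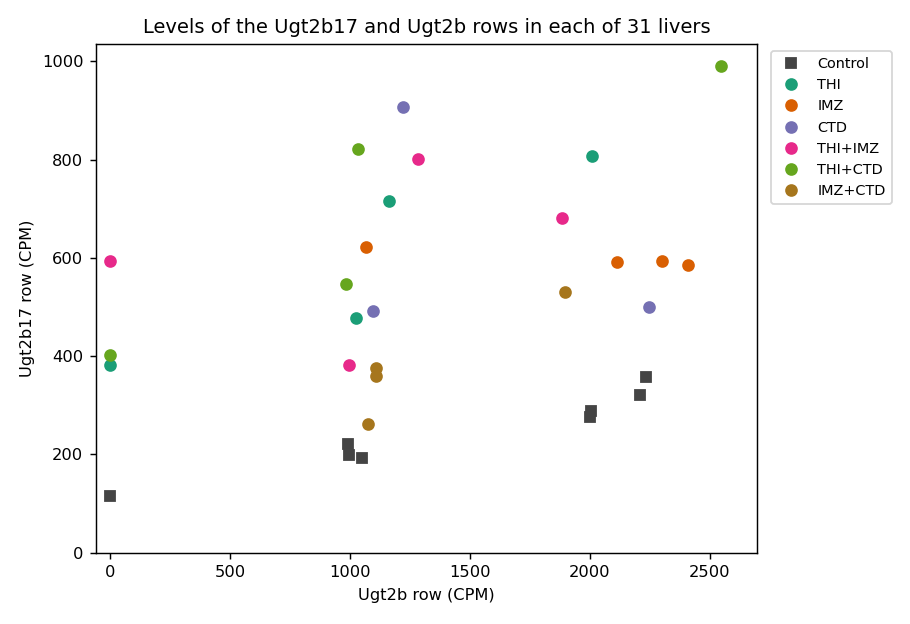
Level of the Ugt2b17 row (y axis, CPM) against the Ugt2b row (x axis, CPM) in each of 31 livers, squares for controls and circles for treated rats, coloured by group. The livers fall into 3 ranges of Ugt2b, and the control squares lie at 115, at 192 to 221 and at 276 to 358 CPM of Ugt2b17 in these ranges.

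Sult1a1 encodes a phenol sulfotransferase with a wide range of small phenolic substrates. Its control livers held 469.6 to 647 CPM with a median of 535. The lowest group was IMZ (319, 440.2, 512 and 407 CPM), in which 3 of 4 livers lay below all controls. The log2 fold change with IMZ was -0.36 (SE 0.14) and the adjusted p 0.476 by edgeR. The estimates with the other 5 treatments ran from -0.21 (THI) to 0.07 (CTD), with adjusted p-values of 0.669 or more. The 95% confidence interval with CTD was -0.25 to 0.39.

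Sult1b1 encodes a sulfotransferase that acts on thyroid hormones and small phenols. It was at 159 to 253 CPM in controls, with a median of 212. The CTD livers held 312, 299 and 369 CPM, all above every control (327 ± 37.2 against 209 ± 25.9, SD, n = 3 and 8). With CTD, 5.33% of all genes lay above all controls in this way. The log2 fold change was 0.64 (SE 0.10, adjusted p = 3.4e-05 by edgeR) and remained between 0.55 and 0.70 when any 1 rat was left out. In the other 5 groups the estimates were positive, between 0.17 and 0.34, and none passed the test (adjusted p 0.0626 to 0.641 by edgeR). With THI + IMZ, where the livers held 226, 253, 281 and 297 CPM, the adjusted p was 0.0626, and it was 0.0277 without Control replicate 8 and 0.0314 without THI + IMZ replicate 1. With THI + CTD, at 257, 282, 242 and 245 CPM, it was 0.0634, and 0.027 without Control replicate 8. A test of any difference among the 6 treated groups gave an adjusted p of 0.0681 for Sult1b1 by edgeR, so its response was not shown to differ between treatments. That p was 0.0108 by DESeq2, 0.0465 with the filterByExpr filter and 0.0489 without THI + IMZ replicate 1. DESeq2 also called Sult1b1 with IMZ (adjusted p = 0.0336), THI + IMZ (0.0149) and THI + CTD (0.0271). Over all genes 5.82% passed that test, and 0 of the 6 members did.

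Sult1e1, the estrogen sulfotransferase, could be followed only through the row ste2 (ENSRNOG00000001957), which RefSeq lists as an older symbol of that gene. It had 0 to 25 counts per library, with a highest level of 0.595 CPM (THI replicate 4). The counts summed to 14 over the controls, and to 27, 6, 14, 11, 8 and 3 over THI, IMZ, CTD, THI + IMZ, THI + CTD and IMZ + CTD. Most of the THI sum came from the 25 counts of 1 liver. No comparison passed the test. The lowest adjusted p was 0.317 with CTD (unadjusted p = 0.106 by edgeR), and the lowest unadjusted p was 0.039 with THI (adjusted p = 0.541). A difference was not detectable at these counts.

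The donor UDP-glucuronate is made in 2 steps from glucose 1-phosphate. Ugp2 encodes UDP-glucose pyrophosphorylase, which forms UDP-glucose, also the donor for glycogen. Its control livers held 146 to 197 CPM with a median of 170.2. The group means ran from 148 ± 25.1 (IMZ) to 191 ± 16.1 (IMZ + CTD), and the log2 fold changes from -0.21 to 0.16 with SEs of 0.12 to 0.14. The adjusted p-values were 0.52 or more by edgeR.

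Ugdh encodes UDP-glucose dehydrogenase, which oxidizes UDP-glucose to UDP-glucuronate. Controls held 136 to 173 CPM with a median of 147. The CTD livers held 214, 181 and 241 CPM and the THI + IMZ livers 230.0, 205, 199 and 205 CPM. Both groups lay above all controls, as did 5.33% (CTD) and 0.794% (THI + IMZ) of all genes. The log2 fold changes were 0.48 (SE 0.11, adjusted p = 0.00443 by edgeR) and 0.47 (SE 0.10, adjusted p = 0.0172). The THI livers were above all controls too, at 231, 203, 182 and 179 CPM (0.734% of all genes were). With an estimate of 0.39 (SE 0.10), the adjusted p was 0.105 by edgeR, and 0.0353 by DESeq2. With IMZ, THI + CTD and IMZ + CTD, 2 of 4 livers in each group exceeded all controls, and the estimates were 0.25, 0.31 and 0.21 with adjusted p-values of 0.514, 0.0884 and 0.392 by edgeR. Both calls rested on 1 rat each: the adjusted p was 0.0585 without CTD replicate 3 and 0.0751 without THI + IMZ replicate 1, while without THI + CTD replicate 1 that group passed at 0.0475.

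Papss2 encodes the enzyme that makes PAPS from ATP and sulfate, and was the member with lower estimates in all 6 groups. Controls held 247 to 300.1 CPM with a median of 264. The THI + CTD livers held 232, 189, 208 and 217 CPM, all below every control, as were 1.82% of all genes. The log2 fold change was -0.35 (SE 0.09, adjusted p = 0.0209 by edgeR). The call was lost without THI + CTD replicate 2 (adjusted p = 0.106) or replicate 3 (0.0775). The 4 THI livers, at 225, 191, 239 and 214 CPM, were also below all controls (0.688% of all genes were), with an estimate of -0.32 (SE 0.09) and an adjusted p of 0.165 by edgeR (0.046 by DESeq2). In the remaining groups the estimates were -0.28 (IMZ), -0.26 (CTD), -0.25 (THI + IMZ) and -0.19 (IMZ + CTD), with adjusted p-values between 0.101 and 0.391 by edgeR. Without CTD replicate 3 the CTD estimate was -0.36 with an adjusted p of 0.0443.

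Averaged over the 6 treatments with equal weight, 4 of 6 members differed from control, where 5.74% of all genes did. Ugt2b17 (1.23, SE 0.18, adjusted p = 8.57e-05 by edgeR), Sult1b1 (0.33, SE 0.06, adjusted p = 0.00128) and Ugdh (0.35, SE 0.07, adjusted p = 0.00263) were higher and Papss2 (-0.27, SE 0.06, adjusted p = 0.00488) was lower. The 6 comparisons share their control rats. For no member did the ranges of adjacent groups, ordered by mean level, separate.

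CTD livers also differed in markers of other cells. The 3 red blood cell genes summed to 94.3 to 109 CPM with CTD against 8.97 to 28.8 CPM in controls, with 3 of 3 higher, and reached 115 CPM in 1 THI + CTD liver. With CTD, 2 of 7 Kupffer cell genes, 2 of 6 endothelial genes and 3 of 6 periportal hepatocyte genes were lower, and 1 of 6 stellate cell genes and 1 of 6 pericentral hepatocyte genes were higher. With THI + CTD, 2 of 7 Kupffer cell genes, 1 of 6 endothelial genes and 1 of 6 periportal genes were lower, and 1 red blood cell, 1 stellate cell and 1 pericentral gene were higher. Their part in the CTD and THI + CTD results was not tested. Of the 8 hepatocyte genes, 0 passed the test with CTD by edgeR, 1 was lower with THI + CTD and 1 was higher with THI + IMZ.

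The rest of the pathway was taken from 5 lists of named genes, of which 52 rows that were no members were tested. The counts of genes higher and lower were 4 and 0 with THI, 2 and 0 with IMZ, 7 and 6 with CTD, 3 and 0 with THI + IMZ, 5 and 1 with THI + CTD and 0 and 1 with IMZ + CTD. The share of all genes called was 0.543% with THI, 0.251% with IMZ, 12.7% with CTD, 1.18% with THI + IMZ, 4.39% with THI + CTD and 1.46% with IMZ + CTD. The median log2 fold change of these rows lay between -0.08 and 0.04 in the 6 comparisons, and that of all genes between -0.07 and -0.01.

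All higher genes with THI, IMZ and THI + IMZ were other UDP-glucuronosyltransferases, as were 4 of 7 with CTD and 4 of 5 with THI + CTD. The list of UGT genes had 9 tested rows. Ugt2a3, which lies between Sult1b1 and the 2b genes, was at 134 ± 40.0 CPM in controls (SD, n = 8) and at 282 ± 71.7 with THI, 289 ± 55.0 with IMZ, 266.5 ± 78.2 with CTD, 261 ± 76.7 with THI + IMZ and 243 ± 10.8 with THI + CTD. Its log2 fold changes were 0.86 to 1.11 in these 5 groups (adjusted p 0.00131 to 0.00713 by edgeR) and 0.37 (adjusted p = 0.433) with IMZ + CTD. Ugt1a2 was the 1 row of the 1a family in the table. The 8 genes of this family in RefSeq share their last exons, so the row may hold reads of others. It rose in the same 5 groups, by 0.58 (CTD) to 0.85 (THI + IMZ), and was at 0.43 with an adjusted p of 0.051 with IMZ + CTD. Ugt2b35 rose with THI, CTD, THI + IMZ and THI + CTD by 0.50 to 0.56, and was at 0.29 with IMZ (adjusted p = 0.18) and 0.23 with IMZ + CTD (adjusted p = 0.185). Ugt2b37 rose with THI (0.69), CTD (0.74) and THI + CTD (0.85), and was at 0.60 with THI + IMZ (adjusted p = 0.0521), 0.31 with IMZ and 0.39 with IMZ + CTD. Ugt2b10 did not pass the test in any comparison, with estimates from -0.19 to 0.10. Beside Ugt2b, described above, the remaining rows were Ugt2a1, Ugt2b7 and Ugt8, whose highest mean in a treated group was 0.305 CPM (Ugt2b7 with CTD). That a gene passed with 1 treatment and not with another does not show a difference between treatments, which was not tested for these genes.

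**Figure D4:**
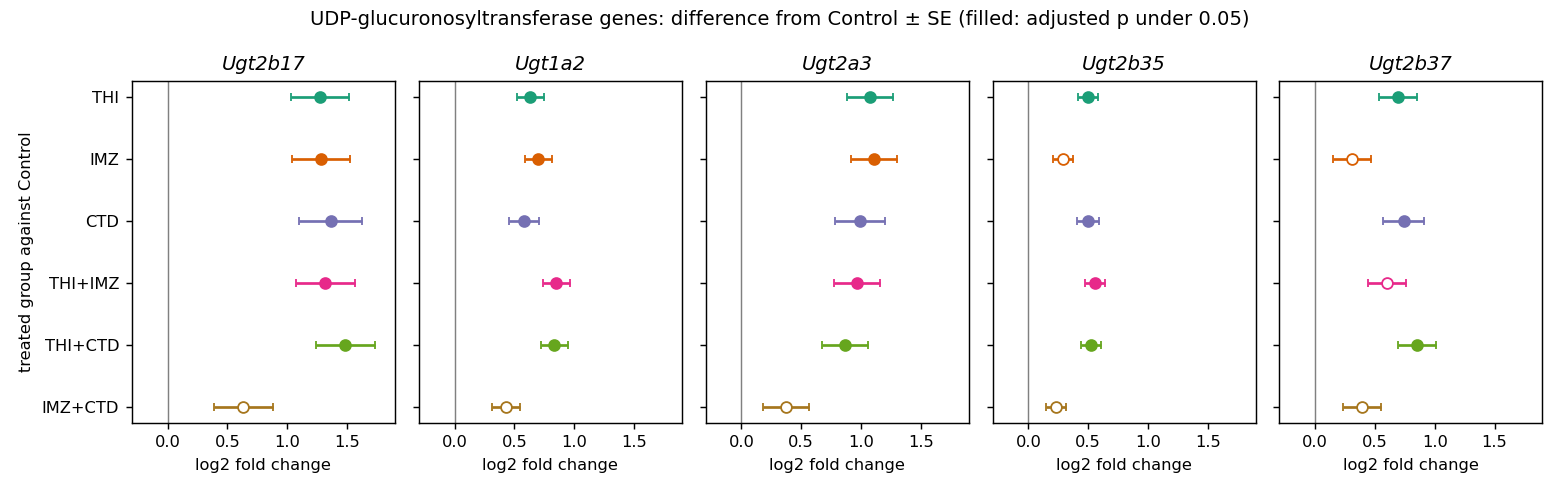
Log2 fold change against Control (x axis, ± SE) of Ugt2b17 and the 4 other UDP-glucuronosyltransferase rows that passed the test in some treatment, for the 6 treated groups (y axis), filled where the adjusted p was under 0.05. In all 5 panels the IMZ + CTD point is open.

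Among the genes of UDP-glucuronate supply, transport and further use, 13 rows that were no members were tested. With CTD, Uxs1, which turns UDP-glucuronate into UDP-xylose, rose by 0.47 (12.8 ± 1.37 against 9.26 ± 0.86 CPM). Miox, the myo-inositol oxygenase that forms glucuronate, fell by 0.46 on the log2 scale, and Dcxr, the xylulose reductase of the later pathway, fell by 0.35. Miox also fell with IMZ + CTD, by 0.47 on the log2 scale (adjusted p = 0.042 by edgeR). Beside Sult1b1, 0 of 11 other tested sulfotransferase rows passed in any comparison with control by edgeR.

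Of the genes of PAPS and sulfate supply and clearance, 14 rows that were no members were tested. Papss1, the other PAPS synthase, rose with CTD by 0.60 (7.67 ± 1.74 against 5.03 ± 0.55 CPM, adjusted p = 0.00157 by edgeR), while the CTD estimate of Papss2 was -0.26. Bpnt1, which clears the spent donor PAP, rose with CTD by 0.28. Cdo1, the cysteine dioxygenase at the entry of the route from cysteine to sulfate, fell by 0.58 on the log2 scale with CTD (719.5 ± 19.6 against 1073 ± 149 CPM) and by 0.47 with THI + CTD (777 ± 86.2 CPM, adjusted p = 0.00297). Tst, a mitochondrial sulfurtransferase, fell with CTD by 0.35. In the list for removal of conjugates (5 genes), Gusb (beta-glucuronidase, -0.34) and Sts (steroid sulfatase, -0.70) were lower with CTD. Ces1e, a carboxylesterase placed in that list, was higher with THI + CTD (0.27). With CTD these are counts to be set against 6.62% of all genes higher and 6.03% lower.

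The mixtures were compared with the dose-weighted sum of the single compounds on the log2 scale, in which each single log2 fold change was weighted by the ratio of its mixture dose to its single dose (0.5 for THI, 0.5 for IMZ, 0.47 for CTD). For Ugt2b17 this sum was 1.28 for each of the 3 mixtures. The observed values were 1.32 for THI + IMZ (difference 0.04, 95% confidence interval -0.48 to 0.56), 1.49 for THI + CTD (difference 0.21, interval -0.31 to 0.73) and 0.63 for IMZ + CTD (difference -0.65, interval -1.19 to -0.11). The last had an unadjusted p of 0.0201 and an adjusted p of 0.241 by edgeR. For Sult1b1 with IMZ + CTD, the observed 0.21 stood against a sum of 0.47 (difference -0.26, interval -0.46 to -0.07, unadjusted p = 0.00917, adjusted p = 0.177 by edgeR). The remaining 16 differences lay between -0.14 and 0.25 with unadjusted p-values of 0.0833 or more. The number of members past the threshold was 0 of 6 for each mixture, where 0.0151% (THI + IMZ), 0.286% (THI + CTD) and 1.16% (IMZ + CTD) of all genes passed.

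**Figure D5:**
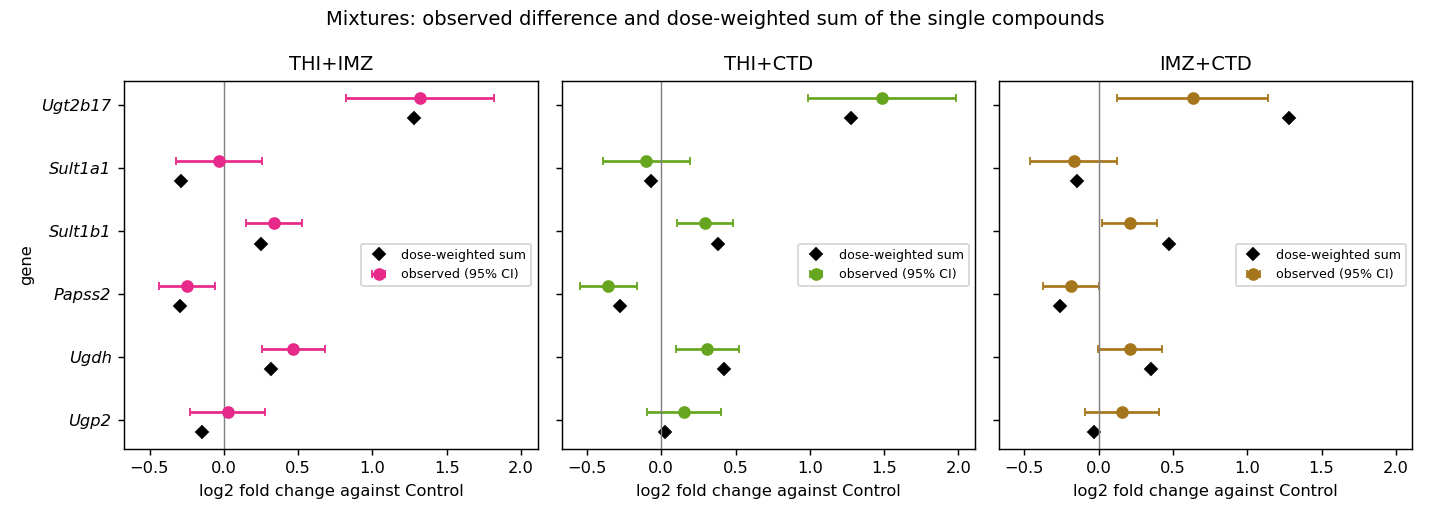
Observed log2 fold change against Control (circles with 95% confidence intervals) and dose-weighted sum of the single compounds (black diamonds) for each gene (y axis) in the 3 mixtures. The Ugt2b17 diamond lies at 1.28 in each panel, inside the interval of THI + IMZ and THI + CTD and above that of IMZ + CTD (0.13 to 1.14).

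The mixtures also allow 3 comparisons in which 1 compound was shared at about the same dose and its partner was exchanged. THI and CTD are both neonicotinoids, THI with a cyanoimine and CTD with a nitroguanidine group, and IMZ is an imidazole. With CTD kept (134 and 135 mg), Ugt2b17 was higher beside THI than beside IMZ by 0.85 (95% confidence interval 0.25 to 1.45), with an unadjusted p of 0.00697 and an adjusted p of 0.259 by edgeR. With IMZ kept (46 mg), it was higher beside THI than beside CTD by 0.69 (interval 0.08 to 1.29, unadjusted p = 0.0267, adjusted p = 0.483). With THI kept (54 mg), the difference between CTD and IMZ as partner was 0.17 (interval -0.43 to 0.77). Ugdh with IMZ kept was higher beside THI than beside CTD by 0.25 (interval 0.00 to 0.50, unadjusted p = 0.0479, adjusted p = 0.55 by edgeR). The other 14 differences lay between -0.17 and 0.13 with unadjusted p-values of 0.122 or more. The 3 comparisons called 0 of 6 members each by edgeR, with 0.171% (THI kept), 0.176% (CTD kept) and 0.0653% (IMZ kept) of all genes called. The single compounds were given at different doses, so their values stand side by side without a test.

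As a description, the genes whose log2 CPM was most like each member over the 31 livers, among 13169 with a symbol and enough counts, were Cyp2b2 (r = 0.857) and Cyp2b1 (r = 0.811) for Ugt2b17, both phenobarbital-inducible cytochromes P450. For Papss2 they were Oat (r = 0.835), the ornithine aminotransferase, and Nit2 (r = 0.795). For Ugdh they were Psmg2 (r = 0.795) and Elovl2 (r = 0.791), for Ugp2 Pdcd4 (r = 0.767) and Gk (r = 0.743), for Sult1b1 Emc2 (r = 0.75) and MT-CO3 (r = 0.745) and for Sult1a1 Pth1r (r = 0.749). Control and treated livers were pooled in these coefficients, so that a shared difference between groups enters them.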

How the data were processed

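Liver total RNA of 31 rats was sequenced, 1 library per rat, and samples were grouped by the treatment in their labels. The rats of a group were independent animals. The authors trimmed adapters, mapped paired reads to Rnor_5.0 and deposited raw counts per gene (STAR 2.5.2b, FastQC 0.11.5 and DESeq2 1.15.1, per the submitters' processing notes). Annotation release and strand setting were not given in the sources used here. The second deposited table holds counts divided by a size factor per library, a signal without further scaling. It equals the raw counts over 1 factor for the 19904 genes it holds, those with 2 or more counts in all, and was used as a check. The raw counts entered all tests.

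Genes with a sum under 2 counts were left out, as in the study's methods. Counts were fitted with edgeR 4.0.16 (R 4.3.3; TMM, glmQLFit, glmQLFTest), 1 mean per group, and a gene was called at a Benjamini-Hochberg adjusted p under 0.05, over all genes. Alternatives were DESeq2 1.42.0, its size factors in edgeR, filterByExpr, no filter, libraries thinned to the smallest total, only the groups compared, exact dose ratios, the replicate number as a block, and each rat left out. The script was tested on simulated data. Totals were 31820322 to 101230067 counts, and with 3 to 8 rats per group the spread between rats set the precision.

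The members and the gene lists were chosen with earlier results of these data known. All members are named. Of the lists, genes past the threshold in at least 1 comparison with control are named, and for each member the 2 genes with the highest Pearson r, of which 1 is not reported here. Ugt2b, Ugt2b10 and the low UGT rows were named after their values were seen. Names and promoters come from RefSeq (GRCr8), whose coordinates differ from the build of the counts. The search for motifs covered the 250 bases before the start, on both strands.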

Additional observations from a re-analysis of the deposited data

Results flagged for a closer look

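In the IMZ + CTD group, replicate 3 had 214.8 CPM of Sult1b1, while the other 3 livers held 247.8 to 252.6 CPM. The gap to the nearest liver was 0.873 of the whole range, above Dixon's critical value at the 95% level for 4 samples. Over 36 groups of values examined in this way, chance alone marks about 1 in 20, and this was the single one marked.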

How the results depend on the processing

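Counts of members past the threshold stayed within 1.5 times the main value except as follows. The Wald test of DESeq2 called 3 members with THI (against 1) and 2 with IMZ (against 1), and its likelihood ratio test called 1 for any difference among the treatments (against 0), as did filterByExpr (1), in both cases Sult1b1. Over all genes DESeq2 called 199 with THI and 150 with IMZ, against 108 and 50 by edgeR. For any difference among the treatments, DESeq2 called 2413 genes and filterByExpr 1451, against 1159 in the main fit. With filterByExpr, Sult1b1 passed with THI + IMZ (adjusted p = 0.0423) and THI + CTD (adjusted p = 0.0449). With the Ugt2b level as covariate, chosen after seeing the data, 1 member passed with IMZ + CTD (against 0), and the difference of Ugp2 between THI + CTD and IMZ + CTD reversed from -0.0059 to 0.0023. The causes were not tested.

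The replicate numbers gave at most a weak sign of pairing between rats. Over 78 pairs of same-numbered rats of different groups, the correlation of deviations from the group means ran from -0.305 to 0.483, with a median of 0.036. For 326 pairs with other numbers the median was -0.008. The correlation was over 0.1 in 24 of the 78 pairs and in 59 of the 326. Numbers 5 to 8 occurred only among controls. A block by number therefore gave each of those controls its own term. The comparisons with control then rested on Control replicates 1 to 4. The part of this in the changes below was not tested. With the replicate block, members called were 1 with THI + IMZ, 1 with THI + CTD, 1 with IMZ + CTD and 2 for the mean of the treatments. Calls over all genes fell as well, to 53 with THI + IMZ, 348 with THI + CTD, 80 with IMZ + CTD and 240 for the mean. Without the block these were 235, 873, 290 and 1143. Ugt2b17 passed with IMZ + CTD (1.09, adjusted p = 0.0414). Ugdh no longer passed with CTD (0.46, adjusted p = 0.053), THI + IMZ (0.44, 0.238) or for the mean of the treatments (0.32, 0.154), nor did Papss2 with THI + CTD (-0.31, 0.156) or for the mean (-0.23, 0.194). The value of Sult1a1 with THI + IMZ reversed to 0.0154.

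With 1 rat left out, the members called ranged from 0 to 1 with THI, 2 to 3 with THI + IMZ, 1 to 3 with THI + CTD and 0 to 1 for any difference among the treatments, where Sult1b1 passed without IMZ replicate 2 or THI + IMZ replicate 1. Over all genes, 72 were called with THI without replicate 3, against 108 with all rats. With THI + CTD, 577 were called without replicate 2 and 450 without replicate 3, against 873. For any difference, 1070 were called without IMZ replicate 2 and 1180 without THI + IMZ replicate 1, against 1159. No called value reversed. Uncalled log2 values that changed sign were, against Control, Sult1a1 with CTD (-0.038 to 0.22), THI + IMZ (-0.073 to 0.046) and THI + CTD (-0.20 to 0.030) and Ugp2 with THI + IMZ (-0.089 to 0.15). Against the dose-weighted sum they were Ugt2b17 (-0.11 to 0.21) and Papss2 (-0.020 to 0.15) with THI + IMZ, Ugt2b17 (-0.017 to 0.40) and Sult1a1 (-0.13 to 0.10) with THI + CTD and Sult1a1 with IMZ + CTD (-0.11 to 0.081). Between THI + CTD and THI + IMZ they were Ugt2b17 (-0.059 to 0.36), Sult1a1 (-0.16 to 0.056) and Sult1b1 (-0.11 to 0.015), between THI + CTD and IMZ + CTD Sult1a1 (-0.036 to 0.19), Ugdh (-0.035 to 0.19) and Ugp2 (-0.13 to 0.084), and between THI + IMZ and IMZ + CTD Papss2 (-0.13 to 0.040). Thinning every library to the smallest total moved no call of a member.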
